A study of Mus musculus with 6 samples.

Results

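The genes described here are 38 aminoacyl-tRNA synthetase and scaffold genes of the mouse, out of 47643 genes in the count table. They were listed by symbol and not by a cutoff on any measured value, but with earlier results of these data known. They comprise 20 genes for enzymes of the cytosol, 2 for scaffold proteins that hold some of those enzymes together (Aimp1 and Aimp2), and 16 for enzymes of the mitochondrion, whose symbols end in 2. All 38 had enough reads to be tested. Messenger RNA was sequenced from the intestine of male C57BL/6 mice, 7 to 8 weeks old, after tamoxifen injection and 2 weeks on a high-fat diet (60% HFD), which both groups received. The 3 Myc-deleted libraries came from MycΔIE, ERT2 mice and the 3 control libraries from Mycfl/fl mice. Myc is a transcription factor of growing cells, and genes for protein synthesis are among its known targets. The labels do not name the promoter that drives the inducible recombinase and do not state if control mice have it, so deletion of Myc and presence of the recombinase cannot be told apart. Nothing in the labels ties each library to a separate animal, so p-values measure the spread between these samples.

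Aminoacyl-tRNA synthetases join each amino acid to its transfer RNA, the step that gives the genetic code its meaning. Cells hold a set in the cytosol, which supplies the bulk of protein synthesis. A second set, also encoded by nuclear genes, is imported into mitochondria and supplies the few proteins encoded by the mitochondrial genome. Most enzymes serve 1 compartment, but Gars (glycine) and Kars (lysine) each make both forms from 1 gene. The enzymes fall into class I and class II by the fold of their catalytic domain, and Eprs (glutamate and proline) carries a domain of each. In animals, 8 of the cytosolic enzymes bind Aimp1, Aimp2 and a further scaffold, Eef1e1, in the multisynthetase complex. Renewal of the intestinal epithelium is rapid and depends on steady protein synthesis. Transcription of many cytosolic synthetase genes is raised by Atf4, the factor of the amino acid response, and Myc is known to bind the CACGTG sequence, the E-box, in promoters of growth genes.

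Promoter sequences are shown for the 7 genes that held the Atf4 element or the E-box, since these elements are the ones that Atf4 and Myc bind. Of the 38 genes, 29 matched a RefSeq promoter (GRCm38.p6, 250 bases before to 50 after the start), and Cars, Hars, Lars, Nars, Rars, Vars, Wars, Hars2 and Pars2 did not. Both strands were searched for TGATGNAA, the C/EBP-ATF response element bound by Atf4 (N is any base), and for CACGTG, which do not share letters in any window shown. TGATGNAA was found in 5 of 15 cytosolic and scaffold genes (33.3%) and in 0 of 14 mitochondrial genes, against 4.51% of 27025 genes in the promoter table. CACGTG was found in 4 of 15 cytosolic and scaffold genes (26.7%) and in 1 of 14 mitochondrial genes (7.14%), against 8.09% of all genes. Aars, Iars and Tars held both. The core of the interferon-stimulated response element was also searched and was found in 1 of 15 (Qars, 6.67%) and in 0 of 14, against 3.99% of all genes. A match is a run of letters and not a measured binding site.

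Each sequence runs 5′ to 3′ on the strand of its gene from 150 bases before the start to 30 after it, with capitals marking the CACGTG and TGATGNAA matches on either strand. The windows are chr8:111033692-111033871 (plus strand) for Aars, chr6:55037851-55038030 (plus) for Gars, chr13:49681980-49682159 (plus) for Iars, chr15:11399629-11399808 (minus) for Tars, chr4:129189753-129189932 (plus) for Yars, chr1:78488868-78489047 (minus) for Farsb and chr7:122067057-122067236 (minus) for Ears2.
Aars: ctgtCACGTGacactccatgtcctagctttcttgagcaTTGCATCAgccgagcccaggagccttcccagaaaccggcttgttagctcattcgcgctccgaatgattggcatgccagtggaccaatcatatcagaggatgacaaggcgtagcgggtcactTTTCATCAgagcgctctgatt
Gars: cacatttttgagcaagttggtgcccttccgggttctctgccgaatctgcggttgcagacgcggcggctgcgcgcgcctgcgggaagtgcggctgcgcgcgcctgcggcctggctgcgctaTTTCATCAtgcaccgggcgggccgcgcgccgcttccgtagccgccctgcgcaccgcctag
Iars: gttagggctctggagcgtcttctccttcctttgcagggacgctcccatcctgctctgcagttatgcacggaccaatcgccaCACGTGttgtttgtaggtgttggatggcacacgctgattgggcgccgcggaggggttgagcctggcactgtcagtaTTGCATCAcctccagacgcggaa
Tars: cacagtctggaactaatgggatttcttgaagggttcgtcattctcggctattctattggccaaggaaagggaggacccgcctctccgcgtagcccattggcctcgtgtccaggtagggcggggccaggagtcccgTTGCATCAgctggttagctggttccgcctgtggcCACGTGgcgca
Yars: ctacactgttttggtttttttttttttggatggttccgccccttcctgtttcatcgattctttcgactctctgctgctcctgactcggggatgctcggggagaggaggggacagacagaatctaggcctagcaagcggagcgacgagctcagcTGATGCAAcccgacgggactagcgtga
Farsb: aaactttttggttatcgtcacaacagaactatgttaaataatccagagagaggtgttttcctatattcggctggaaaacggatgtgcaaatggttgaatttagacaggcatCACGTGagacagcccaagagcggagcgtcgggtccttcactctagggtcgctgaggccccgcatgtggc
Ears2: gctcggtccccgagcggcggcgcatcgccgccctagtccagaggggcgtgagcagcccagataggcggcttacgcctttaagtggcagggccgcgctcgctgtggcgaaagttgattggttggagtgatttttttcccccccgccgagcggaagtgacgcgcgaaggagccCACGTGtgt
The Atf4 element began 112 bases before the start and again at base 10 after it in Aars, 30 bases before in Gars, at base 8 in Iars, 15 bases before in Tars and at base 4 in Yars. The E-box lay 146 bases before the start in Aars, 69 in Iars and 39 in Farsb, and at base 20 after it in Tars and base 22 in Ears2.

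Library totals ranged from 10636658 to 11157715 expected counts in the Myc-deleted and from 9956938 to 11328693 in the control libraries. The 38 genes took 0.230% to 0.261% of all counts in the Myc-deleted libraries and 0.274% to 0.294% in the controls, and cytosolic ribosomal protein genes took 1.5% to 1.77% and 2.38% to 2.83%. Myc itself stood at 3.29, 4.37 and 5.81 CPM (counts relative to library size, scaled by TMM) in Myc-deleted libraries 1 to 3, against 5.86, 6.05 and 6.03 CPM in control libraries 1 to 3. The third Myc-deleted library lay just below the controls, and edgeR gave an adjusted p of 0.318 for Myc, above the threshold, at a log2 fold change of -0.41 ± 0.22 SE. The extraction protocol names liver while the other labels name intestine. The intestinal brush border gene Vil1 stood at 4023 to 4404 CPM in the Myc-deleted and 3840 to 4503 CPM in the control libraries, and 10 epithelial markers summed to 25450 to 27790 CPM and 25540 to 28150 CPM. The 10 hepatocyte markers summed to 194.2 to 245.5 CPM in the Myc-deleted and 157.6 to 202.6 CPM in the control libraries. Nearly all of that was Cps1, a urea cycle enzyme that the intestinal epithelium also makes, at 189.9 to 241.8 CPM and 152.5 to 194.3 CPM (edgeR adjusted p = 0.128). Alb, the main secretory product of hepatocytes, stood at 0.0929 to 0.915 CPM in the Myc-deleted and 1.89 to 3.198 CPM in the control libraries and was called lower (log2 fold change -2.15 ± 0.52 SE, edgeR adjusted p = 0.0326). That call rests on few reads: 10, 1 and 8 counts in Myc-deleted libraries 1 to 3, against 19, 37 and 27 in control libraries 1 to 3. Each of the other 8 markers was at most 2.196 CPM in any library.

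Most synthetase genes had a log2 fold change slightly below 0 in the Myc-deleted libraries, and 1 gene, Hars2, passed the test. Of the 38 genes, 0 were called higher and 1 lower at a Benjamini-Hochberg adjusted p under 0.05 (edgeR quasi-likelihood test over 12720 genes), against 4.22% of all tested genes called higher and 3.73% called lower (7.95% in either direction). A single call of 38 is close to that background and is no result about these genes. Their median log2 fold change was -0.20, with 33 below 0 and 5 above, against a median of -0.002 over all tested genes, 50.2% of which were below 0 and 49.8% above. At an unadjusted p under 0.05 there were 13 of 38, all lower, against 10.4% of all tested genes lower and 11.7% higher. All 3 Myc-deleted values lay below all 3 control values in 12 genes and above them in 0, against 13.7% and 14% of all tested genes (27.8% in either direction). The libraries held markers of several cell types, so fewer cells of a type and less RNA per cell cannot be told apart. Of 8 smooth muscle markers, 6 were tested, all with log2 fold changes below 0 (median -1.265) and none past the test. Their summed CPM was 21.3, 16.4 and 20.6 in Myc-deleted libraries 1 to 3, against 30.3, 96.4 and 17.3 in control libraries 1 to 3, so control library 2 stood apart and control library 3 lay within the Myc-deleted range. Without control library 2 the median log2 fold change was -0.145 in the 22 cytosolic and scaffold genes and -0.295 in the 16 mitochondrial genes, against -0.144 and -0.273 with it. Stroma markers summed to 62.0 to 86.65 CPM in the Myc-deleted and 61.2 to 76.4 CPM in the control libraries.

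**Figure D1:**
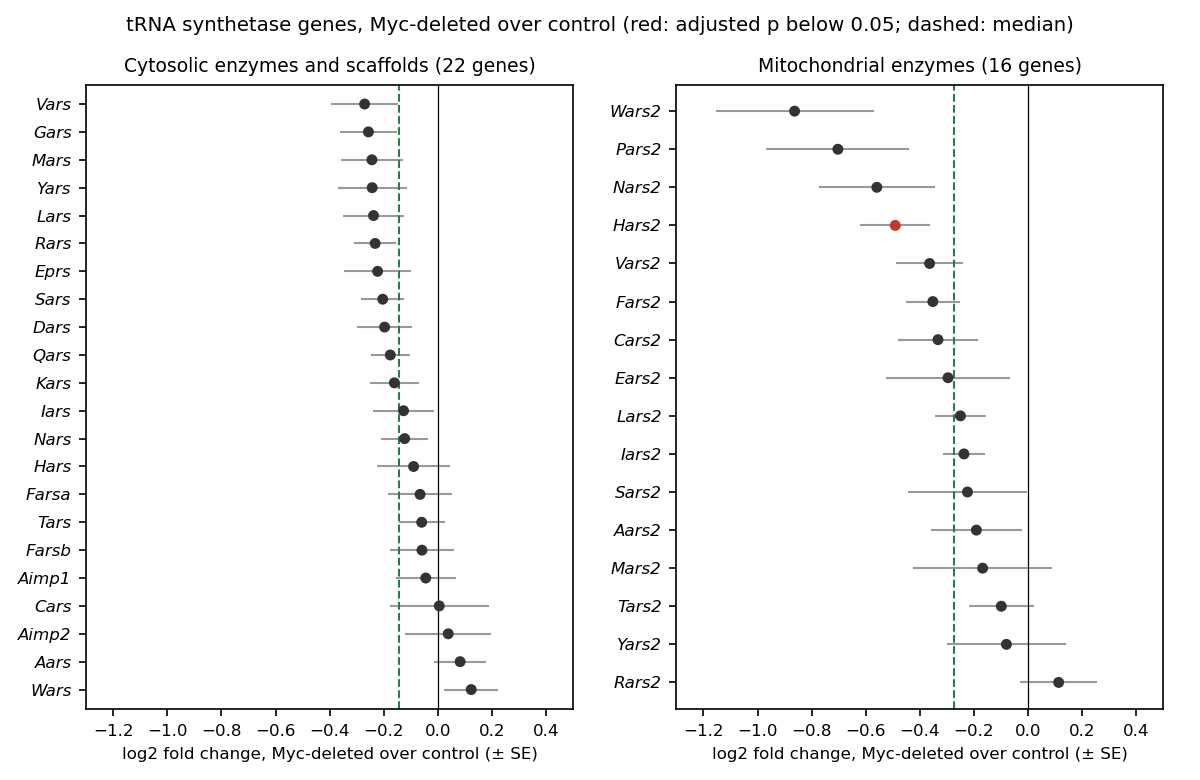
Log2 fold change of Myc-deleted over control for each gene (points) with its SE (bars), in the 22 cytosolic and scaffold genes (left) and the 16 mitochondrial genes (right). The dashed lines are the medians, -0.14 and -0.27, and the red point is Hars2, at -0.49.

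The cytosolic enzymes and scaffolds differed little. None of the 22 genes passed the test in either direction, and 4 had an unadjusted edgeR p under 0.05, all lower. Their log2 fold changes ran from -0.27 (Vars) to 0.12 (Wars), with a median of -0.14 and 18 below 0. The mitochondrial enzymes ran from -0.86 (Wars2) to 0.11 (Rars2), with a median of -0.27 and 15 of 16 below 0. Of these, 9 of 16 had an unadjusted edgeR p under 0.05, all lower, against 10.4% of all tested genes lower. With 1 library left out, this mitochondrial count fell to 5 to 8. With DESeq2 the counts at an unadjusted p under 0.05 were 2 of 22 cytosolic and scaffold genes and 5 of 16 mitochondrial genes. The DESeq2 share over all tested genes is not given here, and the 10.4% is from edgeR. The lowest fold of the cytosolic set was 0.829 (Vars), and on simulated data the same test recovered 6% of genes changed 1.25-fold and 52% of those changed 1.5-fold, so differences of this size were mostly not detectable with 3 libraries a group. The plot of fold changes shows both sets left of 0, with the mitochondrial set spread wider. Low counts widen the error of that set: the median SE was 0.158 in mitochondrial and 0.110 in cytosolic enzymes, and counts per library went down to 18 in the mitochondrial and 159 in the cytosolic set.

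Rars, the arginine enzyme of the multisynthetase complex, had the lowest p of the cytosolic set. It stood at 65.15, 69.9 and 73.1 CPM in Myc-deleted libraries 1 to 3, against 82.6, 78.4 and 83.5 CPM in control libraries 1 to 3. All Myc-deleted values were below all control values, but the difference did not pass (log2 fold change -0.23 ± 0.08 SE, edgeR adjusted p = 0.105). Sars, the serine enzyme, stood at 70.7, 75.7 and 76.95 CPM in Myc-deleted libraries, against 87.45, 90.2 and 79.7 CPM in controls. These groups did not overlap either (log2 fold change -0.20 ± 0.08, adjusted p = 0.163). Qars, the glutamine enzyme, stood at 136.8, 146.8 and 146.0 CPM in Myc-deleted and 157.8, 159.0 and 168.6 CPM in control libraries. Its groups were apart too, at a log2 fold change of -0.18 ± 0.07 (adjusted p = 0.181).

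Gars, the glycine enzyme of both compartments, stood at 66.4, 62.5 and 76.4 CPM in Myc-deleted libraries, against 77.1, 92.5 and 75.6 CPM in controls. Myc-deleted library 3 lay above control library 3, so the groups overlapped (log2 fold change -0.26 ± 0.11, adjusted p = 0.189). Vars, the valine enzyme, stood at 30.4, 33.15 and 36.2 CPM in Myc-deleted libraries, against 33.6, 39.8 and 47.0 CPM in controls, also with overlap (log2 fold change -0.27 ± 0.13, adjusted p = 0.241). Dars, the aspartate enzyme, was the fourth cytosolic gene with groups apart (log2 fold change -0.20 ± 0.10, adjusted p = 0.300). Lars, Mars, Yars and Eprs had log2 fold changes of -0.24, -0.24, -0.24 and -0.22, and Kars, Iars, Nars, Hars, Farsa, Tars and Farsb lay between -0.16 and -0.06, each with overlapping groups. Aars (0.08), Cars (0.01) and Wars (0.12) were above 0.

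Within the cytosolic set, the 10 genes of the multisynthetase complex had a median log2 fold change of -0.19, with 9 below 0 and 3 with groups apart (Dars, Qars and Rars). The 12 outside it had a median of -0.08, with 9 below 0 and 1 with groups apart (Sars). The share of all tested genes apart and lower was 13.7%, and the difference between these subsets was not tested. Class I enzymes had a median of -0.23 (9 genes) and class II enzymes -0.11 (10 genes). The scaffold gene Aimp1 stood at 30.2, 35.0 and 39.0 CPM in Myc-deleted libraries, against 37.7, 37.4 and 32.4 CPM in controls (log2 fold change -0.05 ± 0.11, adjusted p = 0.858). Aimp2 stood at 10.2, 15.4 and 14.95 CPM, against 13.1, 13.05 and 13.3 CPM (0.04 ± 0.16, adjusted p = 0.917). The Myc-deleted values of both scaffolds fell on either side of the controls.

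Of the 16 mitochondrial enzymes, 15 had log2 fold changes below 0, and in 8 every Myc-deleted value was below every control value: Cars2, Fars2, Hars2, Iars2, Lars2, Nars2, Pars2 and Vars2. Over all tested genes, 13.7% had groups apart in that direction. Hars2, the histidine enzyme, stood at 11.5, 12.4 and 9.87 CPM in Myc-deleted libraries 1 to 3, against 14.7, 17.5 and 15.3 CPM in control libraries 1 to 3. It averaged 11.3 ± 1.30 CPM in the Myc-deleted and 15.8 ± 1.45 CPM in the control libraries (SD, n = 3 each), a log2 fold change of -0.49 ± 0.13 SE (edgeR adjusted p = 0.0491). The call lay at the threshold: it did not pass with DESeq2 (adjusted p = 0.0951), limma voom (0.0523) or in any of the 6 edgeR runs that left out 1 library (0.0640 to 0.181). Hars, its cytosolic partner, stood at 24.98, 29.8 and 37.55 CPM in Myc-deleted libraries, against 33.0, 33.2 and 32.1 CPM in controls. Its log2 fold change was -0.09 ± 0.13 (adjusted p = 0.752), and Myc-deleted library 3 was the highest of the 6 and Myc-deleted library 1 the lowest.

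Fars2, the phenylalanine enzyme, stood at 14.7, 16.1 and 15.9 CPM in Myc-deleted libraries, against 20.7, 19.8 and 19.1 CPM in controls. The groups were well apart, at a log2 fold change of -0.35 ± 0.10, and the edgeR adjusted p was 0.0606, or 0.0414 with upper-quartile scaling. Iars2, the isoleucine enzyme, stood at 64.6, 61.8 and 56.9 CPM in Myc-deleted libraries, against 69.6, 73.2 and 73.2 CPM in controls (-0.24 ± 0.08, adjusted p = 0.104). Vars2, the valine enzyme, stood at 9.33, 9.565 and 8.67 CPM, against 12.3, 11.2 and 11.95 CPM (-0.36 ± 0.12, adjusted p = 0.110). In both genes every Myc-deleted value was below every control value.

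Wars2, the tryptophan enzyme, showed the lowest fold of the 38 genes. It stood at 2.47, 2.88 and 4.80 CPM in Myc-deleted libraries, against 4.47, 7.61 and 6.33 CPM in controls, from 27 to 52 and 45 to 88 counts. Myc-deleted library 3 lay above control library 1, and the fitted log2 fold change of -0.86 ± 0.29 did not pass (edgeR adjusted p = 0.111). Without Myc-deleted library 3 the log2 fold change was -1.205 and the edgeR adjusted p was 0.0438, and with no filter on low counts it was 0.0459. Pars2 (proline) and Nars2 (asparagine) followed, at log2 fold changes of -0.70 ± 0.26 and -0.56 ± 0.21 (adjusted p = 0.150 and 0.157), with 18 to 31 counts against 37 to 42 for Pars2 and 31 to 44 against 45 to 58 for Nars2. Cars2 (-0.33), Ears2 (-0.30), Lars2 (-0.25), Sars2 (-0.22), Aars2 (-0.19), Mars2 (-0.17), Tars2 (-0.10) and Yars2 (-0.08) were below 0, and Rars2 (0.11) was above. Ears2, Sars2, Aars2, Mars2, Tars2, Yars2 and Rars2 had overlapping groups.

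**Figure D2:**
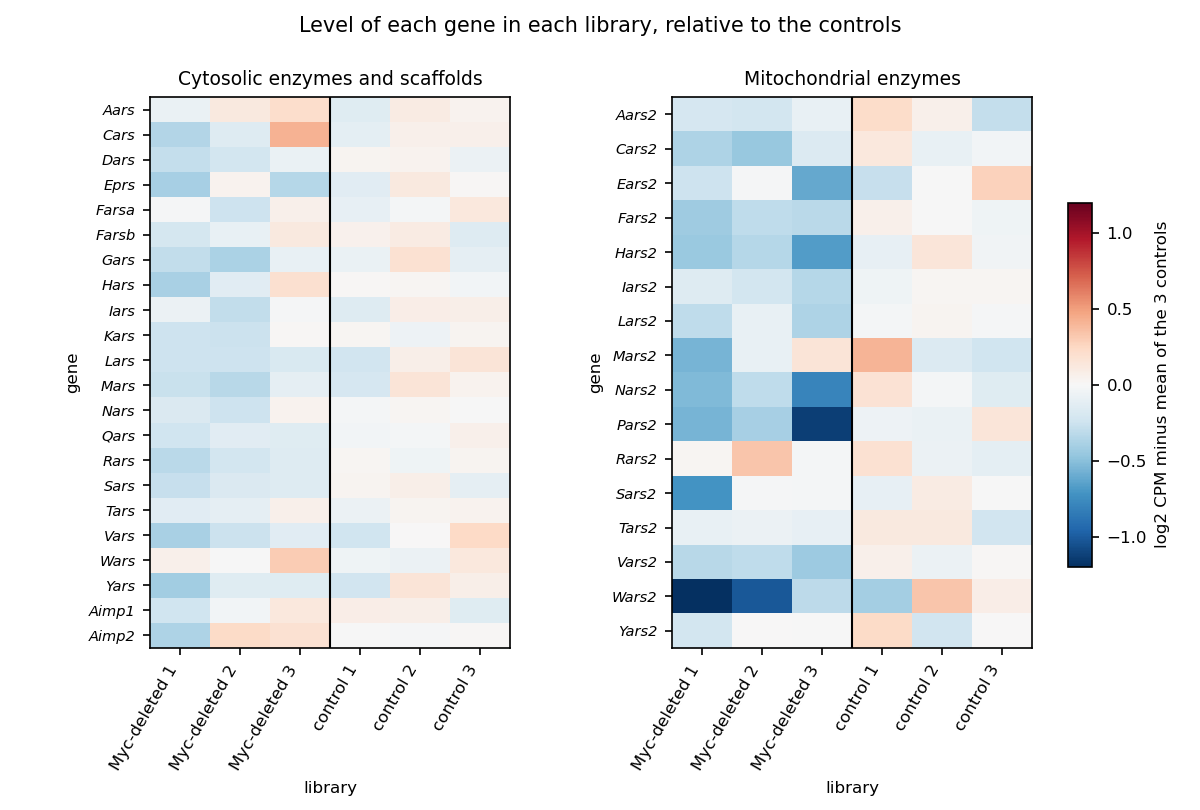
Level of each gene (rows) in each library (columns, Myc-deleted 1 to 3 left of the black line and control 1 to 3 right of it), as log2 CPM minus the mean of the 3 controls, with red higher and blue lower. Blue prevails in the Myc-deleted columns, with the deepest blue in Wars2 (2.47 CPM in Myc-deleted library 1) and Pars2 (1.66 CPM in Myc-deleted library 3), and red returns in the cytosolic rows of Myc-deleted library 3.

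The library map of levels shows that the mitochondrial rows are mostly blue in the 3 Myc-deleted columns, while the cytosolic rows fade or turn red in the third. Averaged over the 16 mitochondrial genes, log2 CPM was 3.31, 3.49 and 3.38 in Myc-deleted libraries 1 to 3, against 3.74, 3.715 and 3.67 in control libraries 1 to 3 (3.40 ± 0.09 against 3.71 ± 0.04, SD, n = 3 each). Every Myc-deleted library was below every control library. Over the 20 cytosolic enzymes it was 5.315, 5.38 and 5.545 in Myc-deleted libraries, against 5.47, 5.60 and 5.58 in controls (5.41 ± 0.12 against 5.55 ± 0.07). Myc-deleted library 3 lay above control library 1, so these groups overlapped. The difference of the 2 means within a library does not depend on the scaling between libraries. It was 2.00, 1.89 and 2.16 in Myc-deleted and 1.73, 1.89 and 1.91 in control libraries. The groups overlapped (2.02 ± 0.14 against 1.84 ± 0.10, a difference of 0.17), and the difference ran from 0.10 without Myc-deleted library 3 to 0.24 without Myc-deleted library 2. Whether the mitochondrial set changed more than the cytosolic set was not tested, and overlap of 3 values a group cannot decide it.

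**Figure D3:**
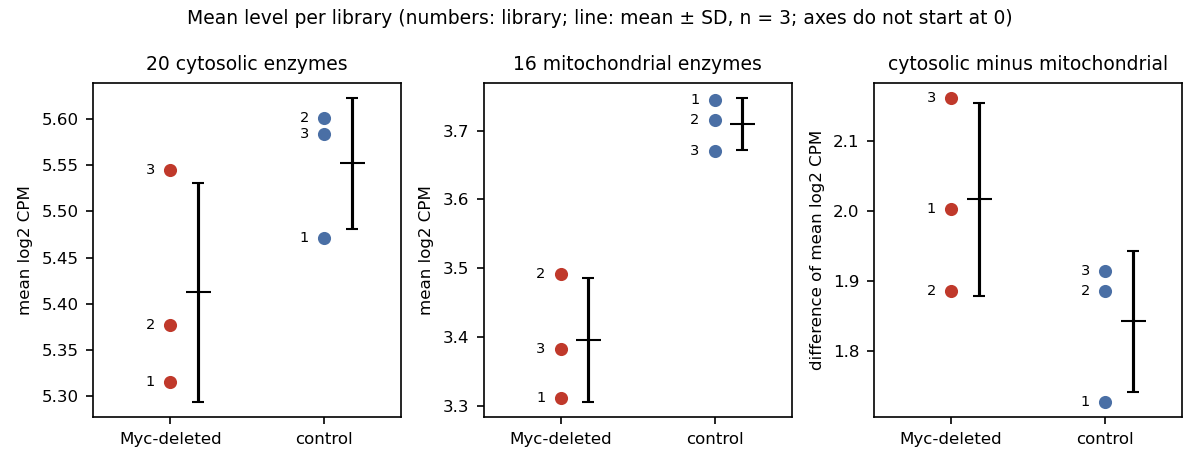
Mean log2 CPM of the 20 cytosolic enzymes (left) and the 16 mitochondrial enzymes (middle) and their difference (right) in each numbered library, with mean ± SD (n = 3). Only the mitochondrial means are apart, at 3.31 to 3.49 in Myc-deleted and 3.67 to 3.74 in control libraries, and the axes do not start at 0.

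Per length, cytosolic enzyme mRNAs were more abundant than mitochondrial ones in both groups. The median level was 10.98 CPM per kb of exon sequence for cytosolic and 2.54 for mitochondrial enzymes in the Myc-deleted libraries, and 11.9 and 3.03 CPM per kb in the controls. The order began with Lars2, Nars and Qars in both groups. Lars2, the mitochondrial leucine enzyme, stood at 1071, 1243 and 1022 CPM in Myc-deleted libraries, against 1301, 1354 and 1312 CPM in controls. The groups were apart (log2 fold change -0.25 ± 0.09, edgeR adjusted p = 0.150). Per kb it stood at 285.6 and 339.5 CPM, and it alone made up 86.1% to 87.6% of the summed CPM of the 16 mitochondrial enzymes in the Myc-deleted and 86.3% to 86.9% in the control libraries. Gene-level counts do not show which part of a transcript the reads cover, so this level cannot be traced along the gene. The mean log2 CPM above weights genes equally, and without Lars2 it was 2.86, 3.04 and 2.94 in Myc-deleted and 3.30, 3.27 and 3.225 in control libraries, again with every Myc-deleted library lower.

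Nars, the asparagine enzyme, was the most abundant cytosolic member, at 64.7 CPM per kb in Myc-deleted and 70.5 in control libraries. It stood at 182.4, 173.8 and 212.2 CPM in Myc-deleted libraries, against 203.1, 209.9 and 206.1 CPM in controls. Myc-deleted library 3 was above all controls, and the log2 fold change was -0.12 ± 0.09 (adjusted p = 0.450). Qars followed at 51.1 and 57.8 CPM per kb. At the low end stood Mars2, at 0.430 and 0.484 CPM per kb.

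Each cytosolic enzyme was set against the mitochondrial enzyme of the same amino acid in 17 pairs, in which Eprs and Fars2 each appear in 2. Per kb, the cytosolic gene was the higher one in 15 of 17 pairs in the controls. Leucine and isoleucine were the exceptions, with Lars at 5.63 and 6.64 CPM per kb in Myc-deleted and control libraries and Iars at 4.71 and 5.14 CPM per kb, below Lars2 and below Iars2 (9.16 and 10.8 CPM per kb). The log2 ratio of cytosolic to mitochondrial CPM was higher in the Myc-deleted group in 14 pairs and lower in 3 (Rars/Rars2, Yars/Yars2 and Mars/Mars2). The groups were apart in 2 of 17 pairs, where for levels of single genes 27.8% of all tested genes are apart. The Wars/Wars2 log2 ratio was 5.22, 4.94 and 4.55 in Myc-deleted libraries, against 4.29, 3.53 and 3.99 in controls (4.90 ± 0.34 against 3.94 ± 0.38). The Farsb/Fars2 log2 ratio was 0.295, 0.297 and 0.523, against 0.08, 0.18 and -0.02. In both, all Myc-deleted ratios were above all control ratios, by 0.97 and 0.29 on average.

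**Figure D4:**
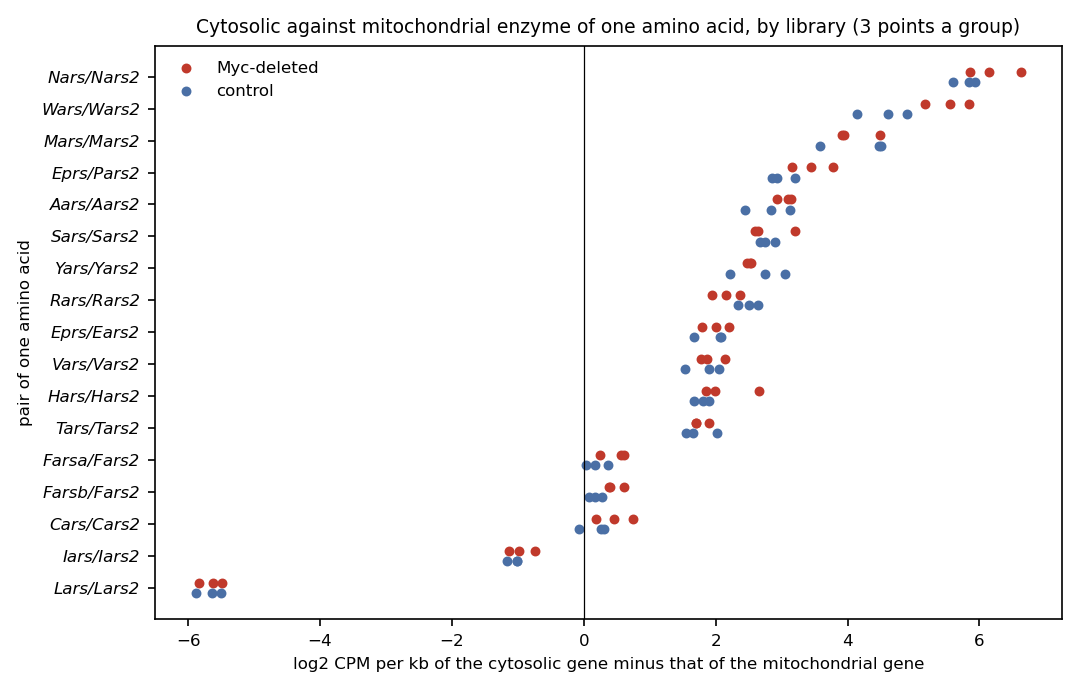
Log2 ratio of the cytosolic to the mitochondrial gene of an amino acid, in CPM per kb, for 17 pairs (rows) with 1 point per library (Myc-deleted red and above, control blue and below). Points right of 0 have the cytosolic gene higher, the pairs of leucine and isoleucine lie left of 0, and the groups are apart for Wars/Wars2 and Farsb/Fars2.

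Among the Myc-deleted libraries, the third stood apart in the cytosolic set. It was the highest of the 3 in 17 of 20 cytosolic enzymes (85.0%), in 4 of 16 mitochondrial enzymes (25.0%) and in 35.0% of all tested genes. The median log2 difference from the mean of libraries 1 and 2 was 0.19 in cytosolic and -0.07 in mitochondrial enzymes, against 0.006 over all tested genes. Cars, the cysteine enzyme, stood at 14.55, 16.7 and 25.0 CPM in Myc-deleted libraries 1 to 3, against 17.2, 19.45 and 19.4 CPM in controls. Only its value in Myc-deleted library 3 was above the controls. Cars had the largest difference of the cytosolic set (0.675), followed by Hars (0.46), and Eprs (-0.17) was the only cytosolic enzyme below 0. Without that library the median log2 fold change of the 22 cytosolic and scaffold genes was -0.225, with 20 below 0. Of these 22 genes, 10 then had an unadjusted edgeR p under 0.05, and the count past the adjusted threshold was still 0. Leaving out any other library gave unadjusted counts from 1 (without control library 2 or Myc-deleted library 1) to 6 (without control library 1). The share of all tested genes at that p is not given for these runs.

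**Figure D5:**
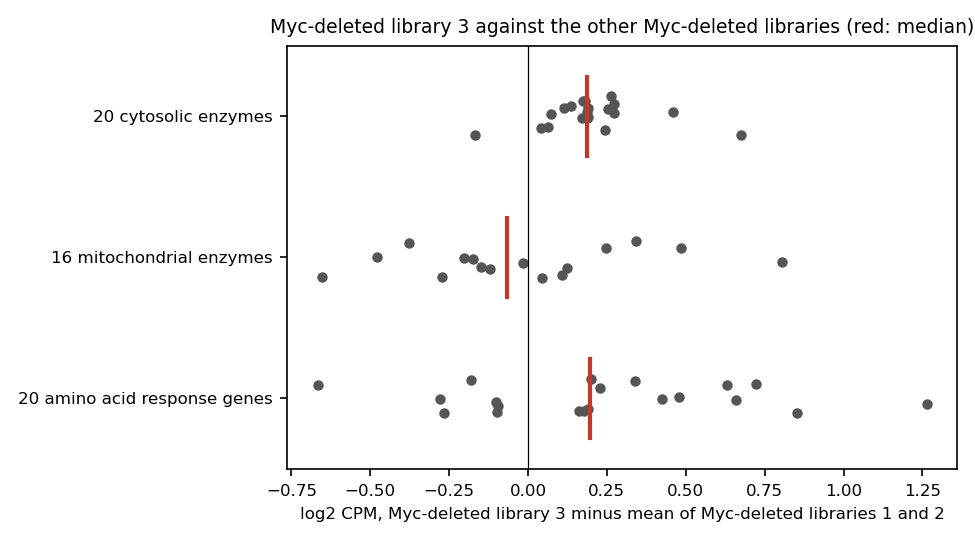
Log2 CPM of Myc-deleted library 3 minus the mean of Myc-deleted libraries 1 and 2 for each gene (points, spread vertically at random) in 3 sets, with the median in red. The cytosolic enzymes lie right of 0 except Eprs (median 0.19), while the mitochondrial enzymes (median -0.07) and the amino acid response genes (median 0.195) lie on both sides.

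Other measures also differed in this library, in both directions. Its Myc level was the nearest to the controls. Asns, the asparagine synthetase that Atf4 induces, stood at 11.5, 12.3 and 21.6 CPM in Myc-deleted libraries 1 to 3, against 17.4, 19.45 and 17.4 CPM in controls, so libraries 1 and 2 were below and library 3 above all controls. Chac1, a further Atf4 target, stood at 1.37, 1.49 and 3.69 CPM, against 1.39, 2.85 and 1.94 CPM. Chac1 (1.26) and Asns (0.85) had the largest differences from libraries 1 and 2 among the 20 amino acid response genes. Those below 0 were Ddit4 (-0.67), Shmt2 (-0.28), Psph (-0.27), Trib3 (-0.18), Psat1 (-0.10), Slc3a2 (-0.10) and Sesn2 (-0.10). Among Myc-deleted libraries, library 3 was highest in 10 of 20 amino acid response genes and 12 of 14 interferon gamma response genes. It was also highest in 7 of 7 Paneth cell markers, against 35.0% of all tested genes. The summed CPM of the Paneth cell markers was 1575, 2217 and 2554 in Myc-deleted libraries 1 to 3, against 1832, 1707 and 1105 in controls. Immune cell markers summed to 392.6, 333.9 and 350.4 CPM, against 346.1, 344.8 and 370.3 CPM. The 5 genes with the Atf4 element exceeded the mean of libraries 1 and 2 by 0.19 (Aars), 0.245 (Gars), 0.17 (Iars), 0.18 (Tars) and 0.135 (Yars), close to the cytosolic median. The part of these measures in the cytosolic levels was not tested.

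The genes that act beside the synthetases gave few calls, to be read against 4.22% of all tested genes called higher and 3.73% called lower. Of 17 charging partners (the amidotransferase that makes mitochondrial glutaminyl-tRNA, editing factors, tRNA maturation and export), 1 was lower and 0 were higher, with a median log2 fold change of -0.05. The one was Mtfmt, which formylates the initiator tRNA of mitochondria, at 12.4, 13.9 and 13.5 CPM in Myc-deleted libraries, against 19.2, 17.55 and 16.55 CPM in controls. The groups were apart and the log2 fold change was -0.42 ± 0.11 (edgeR adjusted p = 0.0481). The call was lost in all 6 runs that left out 1 library (adjusted p = 0.0661 to 0.151). The third scaffold, Eef1e1, stood at a log2 fold change of 0.15 ± 0.18 (edgeR adjusted p = 0.685).

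Of 9 mitochondrial translation factors, 1 was lower and 0 were higher, with a median of -0.24 and 8 below 0. Mtif3, an initiation factor of mitochondria, stood at 18.02, 15.1 and 17.1 CPM in Myc-deleted libraries, against 24.15, 21.2 and 21.96 CPM in controls. The groups were apart (log2 fold change -0.42 ± 0.11, adjusted p = 0.0435), but 5 of 6 runs without 1 library did not pass (0.0765 to 0.142), all except the run without Myc-deleted library 1. Charged tRNAs of the cytosol are carried to the ribosome by the eEF1 complex, of whose 4 genes 3 were lower: Eef1a1 (-0.63 ± 0.10, adjusted p = 0.00471), Eef1b2 (-0.77 ± 0.09, adjusted p = 0.00161) and Eef1g (-0.46 ± 0.09, adjusted p = 0.0143). Eef1a1 itself stood at 2343, 2528 and 2472 CPM in Myc-deleted libraries, against 3824, 4064 and 3461 CPM in controls, with the groups far apart. The Eef1g call was lost without control library 1 (0.0513) or control library 2 (0.0706). The fourth gene, Eef1d, stood at -0.14 ± 0.11 (adjusted p = 0.501).

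Of 20 tested amino acid response genes, 3 were higher and 0 lower, with a median log2 fold change of 0.10, against 4.22% and 3.73% of all tested genes. With 1 library left out, 1 to 2 were higher, and 1 was lower without Myc-deleted library 2 (Shmt2, a mitochondrial enzyme of serine and glycine metabolism, -0.71, edgeR adjusted p = 0.0315) or without Myc-deleted library 3 (Asns, -0.61, edgeR adjusted p = 0.0214). Trib3, a pseudokinase induced by Atf4, stood at 21.9, 25.2 and 20.7 CPM in Myc-deleted libraries, against 12.4, 9.595 and 13.1 CPM in controls. The groups were apart and the call held in all 6 runs without 1 library (log2 fold change 0.95 ± 0.14, edgeR adjusted p = 0.00334). Ddit3, which encodes the stress factor Chop (0.655 ± 0.17, adjusted p = 0.0450), and Vldlr, a lipoprotein receptor (1.13 ± 0.26, adjusted p = 0.0281), passed as well, but each lost its call in 5 of 6 such runs (Ddit3 0.0568 to 0.154, kept without Myc-deleted library 1, and Vldlr 0.0777 to 0.1, kept without Myc-deleted library 2). Atf4 itself stood at 198.8, 195.8 and 226.6 CPM in Myc-deleted libraries, against 214.8, 224.4 and 183.7 CPM in controls, with full overlap (adjusted p = 0.985).

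Wars is induced by interferon gamma in human cells. It stood at 98.8, 93.9 and 116.3 CPM in Myc-deleted libraries, against 90.9, 89.7 and 103.2 CPM in controls. The groups overlapped (log2 fold change 0.12 ± 0.10, adjusted p = 0.519). The summed CPM of 14 interferon gamma response genes was 963.8, 842.2 and 1286 in Myc-deleted and 766.1, 618.3 and 992.6 in control libraries, so within each group the libraries fell in the same order as for Wars. This is a description over 6 libraries. In that list of 14, 2 genes were higher and 0 lower, against 4.22% and 3.73% of all tested genes. The median log2 fold change of the list was 0.59. Gbp3, a guanylate-binding protein, was called higher (1.92 ± 0.51, edgeR adjusted p = 0.0491). It lost its call without any 1 control library (0.0949 to 0.188) or Myc-deleted library 3, where its log2 fold change was 1.06 (0.0844).

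Some of these genes overlap others, and whether counting used the strand is not given in the sources used here. Hars2 (chromosome 18, 36783008 to 36792562, plus strand, GRCm38) and Hars (36766528 to 36783205, minus strand) start 197 bases apart, head to head, and 195 exon bases overlap. Without strand, reads of that stretch cannot be told apart. Mars (chromosome 10) shares 68 exon bases with Ddit3, which was called higher, and Farsb shares 248 with Sgpp2 on the opposite strand, which was called lower (-0.40 ± 0.09, adjusted p = 0.0268). Iars2 shares 2034 exon bases with Rab3gap2 (-0.01 ± 0.12, adjusted p = 0.972). Aars shares 1326 exon bases with Exosc6 on its own strand and 13.9% of its 31-base words with other genes, and Iars shares 14.7%, mostly with Gm4849, so the counts of these 2 genes are less certain. For the other 36 genes the share was at most 4.15%.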

How the data were processed

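Expected counts per gene of 6 stranded mRNA libraries were deposited by the authors without scaling between libraries. Per the submitters' processing notes, cutadapt, STAR, Picard and RSEM were used with build mm10; the sources used here give neither versions nor the strand setting. Of 47643 genes, 99.1% matched GENCODE M21 (GRCm38) by identifier, which gave symbols, positions and exon lengths.

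After rounding the expected counts to whole numbers, edgeR 4.0.16 (R 4.3.3) was run with filterByExpr (minimum count 10, minimum total 15), TMM scaling and its quasi-likelihood test (Myc-deleted over control); p-values of 12720 genes were adjusted by Benjamini-Hochberg, threshold 0.05. SE was taken as the size of the log2 fold change divided by the root of its F value. Levels are CPM with TMM scaling, and log2 CPM used a prior count of 2. A count of 3 corresponded to 0.259 to 0.306 CPM, which covers counting error only. Alternatives were RLE and upper-quartile scaling, TMM without ribosomal protein genes, DESeq2 1.42.0, limma 3.58.1 voom, 2 other filters, an adjusted p of 0.1, the replicate number as a block and each library left out; leaving out libraries for the cytosolic and mitochondrial difference was added after seeing the data.

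The members and gene lists were chosen with earlier results of these data known. Genes given in full were those past the threshold with their partner enzyme, and the 5 of each compartment with the lowest p. Both scaffolds, the 3 most abundant per length, and list members past the threshold were also given. Cars, Asns, Chac1, Atf4, Wars, Eef1e1, Eef1d, Shmt2, Ddit4, Psph, Psat1, Slc3a2, Sesn2, Cps1 and Sgpp2 were added after their values were seen. On simulated counts for this comparison (12546 genes), the share of changed genes recovered was 6% for a 1.25-fold change, 52% for 1.5-fold, 80% for 2-fold and 98% for 4-fold, with 17 false calls among 135 (12.6%). Protein sequences were not used here, and some genes that the lists count are not reported here by name.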

Additional observations from a re-analysis of the deposited data

How the results depend on the processing

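The 22 cytosolic and scaffold genes gave 0 calls in either direction, and the mitochondrial enzymes 0 calls higher, under every alternative run. The count of mitochondrial enzymes called lower, 1 in the edgeR test, was 2 with upper-quartile scaling (Hars2 and Fars2), 2 with no filter on low counts (Hars2 and Wars2), 2 at an adjusted p of 0.1, 0 with DESeq2, 0 with limma voom, and 0 to 1 when 1 library was left out, where the 1 was Wars2 and not Hars2. The cytosolic median log2 fold change ran from -0.225 to -0.10 over all alternatives, and the mitochondrial one from -0.346 (without Myc-deleted library 2) to -0.27. Over all genes, calls numbered 824 higher and 748 lower at an adjusted p of 0.1, and 229 to 503 higher and 233 to 447 lower with 1 library left out. Same-numbered libraries correlated at 0.026, 0.052 and 0.019 in their deviations. Each library correlated best with its own number, which is a hint of pairing from the data. The values were small, so this check does not settle if the numbers pair the samples. With the replicate number as a block, 552 genes were higher and 428 lower, and 0 mitochondrial enzymes were called, with Hars2 at an edgeR adjusted p of 0.0558. In the interferon gamma response list, 6 of 14 genes were called higher with the block and 2 without it. Over all 12720 tested genes these counts were 552 and 537. The sign of Cars turned with upper-quartile scaling (-0.037), TMM without ribosomal protein genes (-0.002), limma voom (-0.034), the replicate block (-0.023) and with 1 library left out (-0.262 to 0.159). That of Aimp2 turned with upper-quartile scaling (-0.002) and with 1 library left out (-0.075 to 0.207). With 1 library left out, signs also turned for Farsa (-0.135 to 0.013), Farsb (-0.16 to 0.016), Hars (-0.263 to 0.04), Aimp1 (-0.141 to 0.046), Mars2 (-0.351 to 0.07), Rars2 (-0.015 to 0.209) and Yars2 (-0.207 to 0.046), none of them called. The cause was not tested. Of 532 values of the 38 genes under alternatives, 503 kept direction and side of the threshold, and of 154 values of 11 other genes 110 did, the other 44 losing their call. Counts as low as 18 limit what can be seen in the mitochondrial set.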
